A study of Ovis aries with 6 samples.

Results

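The windows described here lie at the proximal ends of sheep chromosomes 4 to 26, which are acrocentric, with the centromere close to 1 end. They are fixed, non-overlapping 1 kb windows in the first 2 Mb after the first CpG that the deposited table lists on each chromosome. A window was kept when it touched no listed unmethylated region (UMR), low-methylated region (LMR) or DNA methylation valley (DMV) of either stage, and when it held at least 3 CpGs covered by at least 5 reads in every one of the 6 animals. Such CpGs are called usable below. Of 46000 windows on the 23 chromosomes 10788 (23.5%) met the rule, out of 667494 that meet the same filters on all autosomes. A further 11270 (24.5%) touched a listed region and 23942 had under 3 usable CpGs. The first listed CpG lay between positions 1 and 294, so the windows run from position 1 to 2000000 of each chromosome on the build Oar_v3.1. The files do not mark centromeres. That the first bases are the centromere side rests on the usual orientation of the sheep assembly.

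The DNA was perirenal adipose tissue, the fat depot of the kidney, from wild-type, pure-bred Merino sheep given no treatment, and it was sequenced whole-genome after bisulfite conversion. The 3 lambs were born at term and reared with their mothers to weaning. The sample labels give their age as 89 ± 7 days after birth, the series design text as 80 days, and the labels call their fat white adipose. The 3 fetuses were collected at 132 ± 1 days post conception, where term is 150 days, and the labels call their fat brown adipose. Each sample is a separate animal, but a tag in the sample descriptions reads VEH on every lamb and TV on every fetal animal, so its meaning, which is not stated, and stage cannot be told apart. The DNA came from whole tissue, so a change in the mix of cells and a change within cells cannot be told apart, and the labelled tissue was not checked against markers, since no expression values were used here.

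After bisulfite treatment unmethylated cytosine is read as T, and the methylation level of a CpG is the fraction of its reads in which C was kept, given here in percent. Most CpGs of a mammalian genome are methylated outside promoters and other regulatory elements, and this general level is the background seen in windows outside the listed regions. UMRs include most CpG-rich promoters, LMRs are stretches of intermediate methylation often found at enhancers and other distal elements, and DMVs are long unmethylated stretches that often hold genes for developmental regulators. Sequence beside a centromere is often rich in satellite repeats and in copies of segments found elsewhere in the genome. Satellite DNA of somatic mammalian cells is usually heavily methylated. Chromosomes 1 to 3 of sheep are bi-armed, so that their first bases are far from a centromere, and their start is set beside the proximal ends below.

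Mean coverage of an autosomal CpG was 5.22 to 8.00 reads in lambs and 5.38 to 7.45 reads in fetal animals. A listed CpG had on average 6.26 reads per animal in the proximal 2 Mb, against 6.31 in the middle 2 Mb and 6.63 in the last 2 Mb of the same chromosomes. A proximal window rested on a median of 5 usable CpGs and 44 reads per animal, against 4 CpGs and 37.7 reads in the middle and 8 CpGs and 66.8 reads at the distal end.

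Windows at the proximal ends were less methylated than windows in the middle of the same chromosomes, in each of the 6 animals, and the gap to the distal ends was larger. With equal weight per chromosome, the proximal level was 75.6%, 77.8% and 76.9% in lambs 1 to 3 and 75.6%, 75.9% and 75.1% in fetal animals 1 to 3. In the middle 2 Mb it was 78.3%, 80.7% and 79.8% in the lambs and 78.8%, 79.1% and 79.0% in the fetal animals. Every animal was lower at its proximal ends: proximal minus middle was -2.66, -2.99 and -2.97 percentage points in the lambs and -3.24, -3.25 and -3.88 points in the fetal animals. The mean difference, proximal minus middle, was -3.16 points ± 0.411 (SD, n = 6). A two-sided exact sign-flip permutation test over animals returned p = 0.03125, as low as 6 animals can go, and 0.0521 after Benjamini-Hochberg adjustment over the 5 tests of levels, which is above 0.05. The animals share 1 assembly, so the test covers the spread between animals and not that between chromosomes.

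The size of this difference depended on how chromosomes and windows were weighted. It was -1.82 points with reads pooled over chromosomes, -1.50 over the 13 chromosomes with at least 200 windows in both sets, -1.42 with 5 Mb in place of 2 Mb, -2.02 without the first 250 kb, and -5.00 against a middle matched on the number of CpGs per window (exact sign-flip permutation p = 0.03125 in each). Leaving out any 1 chromosome gave -3.70 to -2.50 points.

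The distal 2 Mb of the same chromosomes stood higher than either. Proximal windows averaged 76.7% ± 1.07 in lambs and distal windows 84.2% ± 0.803, and in fetal animals the proximal windows averaged 75.5% ± 0.409 and the distal ones 83.8% ± 0.0202 (SD, n = 3 each). Proximal minus distal was -7.87 points ± 0.558 (SD, n = 6), between -8.72 and -7.12 in single animals, with the same exact sign-flip permutation p of 0.03125 and adjusted p of 0.0521. It was -5.44 with reads pooled over chromosomes, -4.28 with 5 Mb in place of 2 Mb and -4.63 over the 15 chromosomes with at least 200 windows. This contrast was not matched on CpG number, and distal windows held more, a median of 27 listed CpGs against 15. With reads pooled in classes of 3 to 5, 6 to 10, 11 to 20, 21 to 40 and over 40 listed CpGs, proximal windows were at 71.3%, 76.8%, 78.5%, 78.9% and 81.7%. Distal windows were at 79.0%, 80.6%, 82.3%, 83.7% and 85.9% (means of 6 animals).

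The start of the bi-armed chromosomes did not show the low level. Proximal windows of chromosomes 4 to 26 averaged 76.1% over the 6 animals, against 83.1% in the first 2 Mb of chromosomes 1 to 3, which hold 3092 windows under the same filters. These starts were richer in CpGs, with 30.8 listed CpGs per kb and a median of 33 per usable window, against 11.1 and 15 proximally. In this they were closer to the distal ends of chromosomes 4 to 26, at 26.9 and 27 with a level of 84.0%. On chromosomes 4 to 26 the level went up with CpG number, as given below. As the mean of chromosomes 1 to 3, the start was above the middle in every animal, by 0.989 to 2.34 points in lambs and 0.900 to 1.76 points in fetal animals. Singly, chromosomes 1, 2 and 3 were at 3.09, 0.783 and 0.552 points (mean of 6 animals), with 1 animal lower at the start on chromosome 2. The difference between the end effects, proximal minus middle on chromosomes 4 to 26 less start minus middle on chromosomes 1 to 3, was -4.64 points ± 0.383 (SD, n = 6; exact sign-flip permutation p = 0.03125, adjusted p = 0.0521). It sets 23 chromosomes against 3, and on 7 of the 23 all 6 animals were also higher at the start than in the middle. The test covers the spread between animals and not that between chromosomes, so it cannot decide whether acrocentric and bi-armed chromosomes differ. The middle of a bi-armed chromosome can itself lie near its centromere, and only 1093 windows of chromosomes 1 to 3 were usable there.

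**Figure D1:**
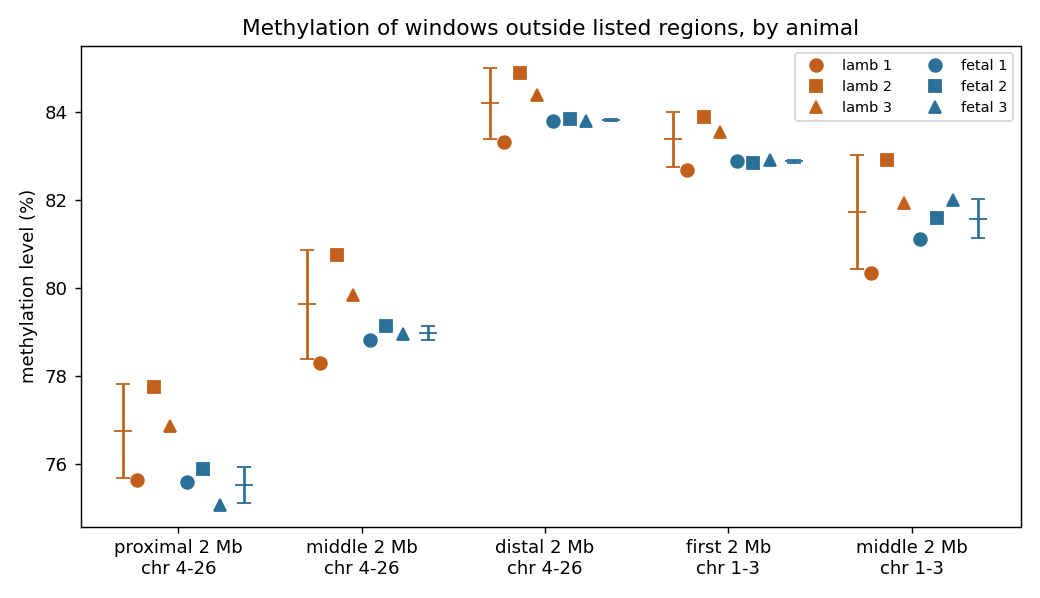
Methylation level (%) of windows outside the listed regions in each of the 6 animals, lambs in orange left of fetal animals in blue, for the proximal, middle and distal 2 Mb of chromosomes 4 to 26 and for the first and middle 2 Mb of chromosomes 1 to 3. Bars are the mean and SD of 3 animals; the proximal set lies between 75.1% and 77.8%, under all 6 animals of every other set.

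The proximal ends were not alike. The level of a chromosome's proximal windows, as the mean of 6 animals, ran from 65.5% to 83.3% with an SD of 5.80 points over the 23 chromosomes, against 3.37 points in the middle and 1.39 points at the distal ends, where it ran from 81.1% to 86.4%. On 14 chromosomes all 6 animals were lower in the proximal windows than in the middle, on 7 (chromosomes 5, 8, 12, 13, 14, 24 and 25) all 6 were higher, and on chromosomes 10 and 17 the animals were split. With all 6 animals on 1 side the exact sign-flip permutation p is fixed at 0.03125, here 0.0342 after adjustment over the 23 chromosomes. On these 21 chromosomes it therefore only restates the shared direction of animals measured on the same sequence. Against the distal end, all 6 animals were lower on 22 of 23 chromosomes, and on chromosome 13 all 6 were higher, by 0.685 points on average. The order of chromosomes was shared: proximal minus middle in lambs and in fetal animals had a Pearson correlation of 0.990 over 23 chromosomes, and the least alike pair of animals 0.950, all measured on the same sequence.

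Chromosome 6 had the lowest proximal windows relative to its middle. Its 148 windows were at 65.4%, 66.8% and 67.1% in lambs and 65.4%, 65.1% and 63.3% in fetal animals. The middle of chromosome 6 was at 82.1%, 84.0% and 84.1% in lambs and 83.0%, 82.8% and 83.6% in fetal animals, so no proximal value came near a middle value. Proximal minus middle was -17.8 points ± 1.27 (SD, n = 6).

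On chromosome 20 the 77 proximal windows were at 68.0%, 69.6% and 67.9% in lambs and 67.1%, 65.0% and 64.5% in fetal animals. The middle of chromosome 20 was at 80.7% to 82.8% in the 6 animals, and the difference was -14.7 points ± 1.66 (SD, n = 6). Chromosome 11 had 139 proximal windows at 65.9%, 67.3% and 67.2% in lambs and 66.8%, 65.9% and 63.9% in fetal animals, against 77.6% to 80.0% in its middle, a difference of -12.3 points ± 1.26. Proximal and middle values were well apart on both chromosomes. Chromosomes 4, 15 and 9 followed at -11.1, -9.80 and -8.16 points.

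At the other end of the order stood chromosomes 8, 25 and 5, where the proximal windows were the more methylated. Chromosome 8 had 398 proximal windows at 81.0%, 83.8% and 83.8% in lambs and 82.7%, 82.4% and 82.6% in fetal animals. Its middle was at 72.4%, 77.3% and 73.7% in lambs and 73.2%, 75.4% and 73.3% in fetal animals, and the difference was 8.51 points ± 1.45 (SD, n = 6). It was 6.81 points ± 0.803 on chromosome 25 and 4.21 points ± 0.453 on chromosome 5.

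These 3 chromosomes had proximal windows at 82.7%, 80.8% and 80.9%, against middles among the lower ones, at 74.2%, 74.0% and 76.7%. Proximal minus distal was negative on them too, at -1.75, -3.43 and -2.35 points. The direction depended on the windows compared on 3 of the 6 chromosomes named: it was 1.87 points on chromosome 20 with 5 Mb in place of 2 Mb, -0.332 on chromosome 25 against the middle 50% of the chromosome, and -0.550 on chromosome 5 with a minimum of 1 read and the listed regions included. The size on the 3 high chromosomes was as dependent: chromosome 8 was at 0.266 points with 5 Mb (exact sign-flip permutation p = 0.3125), at 1.87 against the middle 50%, and at 1.99 with listed regions included (exact p = 0.0625). With listed regions included chromosome 25 was at 0.874 points, and at 0.493 with a minimum of 1 read as well (exact p = 0.40625), and chromosome 5 was at 0.186 points against the middle matched on CpG number (exact p = 0.78125).

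**Figure D2:**
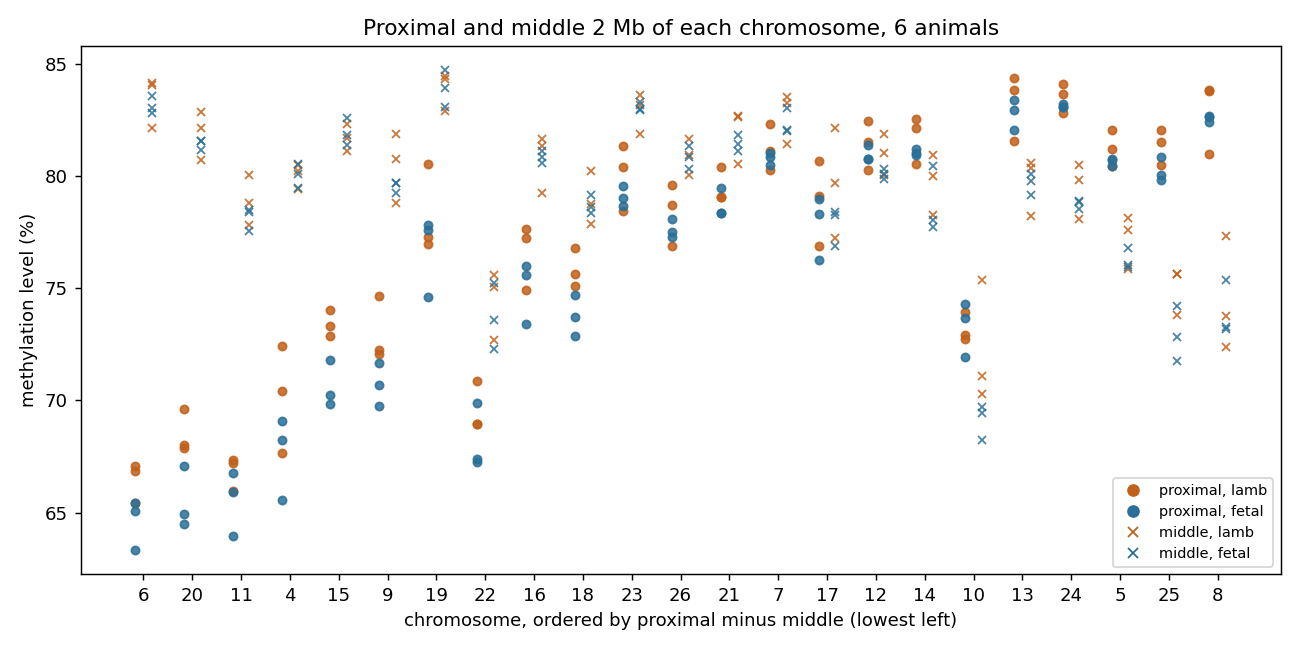
Methylation level (%) of the proximal windows (circles) and of the middle windows (crosses) of each of chromosomes 4 to 26, with 1 point per animal, lambs in orange and fetal animals in blue. Chromosomes run from the lowest proximal minus middle difference on the left (chromosome 6, -17.8 points) to the highest on the right (chromosome 8, 8.51 points).

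Set beside the rest of the genome, a few proximal ends were among its least methylated stretches outside listed regions. The autosomes were divided into 1216 blocks of 2 Mb with at least 20 windows under the same rule. The proximal blocks of chromosomes 6, 11, 20, 22 and 4 were 5 of the 10 lowest blocks, and that of chromosome 6 was the lowest of all. In total 8 of the 23 proximal blocks lay under the 5th percentile of all blocks, 74.1%, as did 53 of the other blocks, and 15 of the 23 lay under the median of all blocks, 80.6%. The next blocks varied between chromosomes. On chromosome 20 the mean of 6 animals was 67.0% in the first 2 Mb and 84.2% in the second, and on chromosome 9 it was 71.8% and 81.4%. On chromosome 4 the second block was still at 71.2%, and on chromosome 11 it was at 71.4% and the third at 81.1%. Chromosome 18 had its lower value in the second block, 70.0%, against 74.8% in the first. Low blocks also lay farther in: chromosome 9 was at 69.1% and 70.0% from 6 to 8 and 8 to 10 Mb, and chromosome 10 at 68.7% from 6 to 8 Mb, under its proximal 73.2%.

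The level was lowest right at the start of the sequence. In the first 250 kb, over the 22 chromosomes with at least 5 windows there, it was 71.0%, 72.7% and 71.9% in lambs and 70.9%, 71.1% and 69.5% in fetal animals. Between 1 and 1.25 Mb the means were 77.8% ± 0.738 in lambs and 76.8% ± 0.341 in fetal animals (SD, n = 3 each). The last 250 kb inside the 2 Mb limit was at 78.6% in lambs and 77.5% in fetal animals, over 22 chromosomes. The first 250 kb outside it was at 78.0% and 77.0%, over 20 chromosomes, so the mean over chromosomes had no step at the limit. Single chromosomes changed there: as the mean of 6 animals, chromosome 18 went from 83.4% to 73.5% and chromosome 20 from 60.2% (6 windows) to 67.7% (14 windows). Changes as large lay between neighbouring steps away from the limit. Chromosome 18 rose from 67.5% to 83.4% just before it and fell from 73.5% to 63.5% just after it. The starts of chromosomes 1 to 3 had no such dip: their first 250 kb was at 83.5% in lambs and 82.9% in fetal animals.

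The first 250 kb, picked out after this profile was seen and therefore given with no test, differed from the rest of the 2 Mb by -6.46 points on average, between -7.76 and -5.97 points in single animals. All 6 animals were lower there on 14 of 22 chromosomes and all 6 higher on chromosomes 8 and 17. The drop was steepest on chromosome 14, at -21.6 points over 25 windows, followed by chromosomes 18, 5, 23 and 16 at -16.9, -16.8, -16.8 and -15.6 points. Without CpGs of high coverage the order changed: chromosome 23 was then at -17.9, chromosome 14 at -17.4, chromosome 5 at -16.8, chromosome 7 at -13.01, chromosome 18 at -12.5 and chromosome 16 at -9.86 points. On chromosomes 6, 10 and 11 the first 250 kb was not the lower part on average, at 0.651, 0.689 and 1.28 points, and without CpGs of high coverage at -0.152, -2.96 and 0.709 points. On chromosome 6 the first 250 kb was at 66.7% in lambs and 64.8% in fetal animals and the rest at 66.0% and 64.2%.

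Read depth moved with the start of some chromosomes. A usable CpG in the first 250 kb had on average 78.6 reads per animal on chromosome 23, 41.5 on chromosome 16, 27.7 on chromosome 9 and 20.6 on chromosome 19, against 8.62, 8.78, 10.98 and 8.58 in the rest of the 2 Mb of the same chromosomes. Of the 55 members with over 3 times the median coverage, 48 lay in the first 250 kb, and the 55 averaged 66.4%. Without CpGs of high coverage the first 250 kb still differed from the rest by -6.08 points, with all 6 animals lower on 15 chromosomes, and proximal minus middle over the 2 Mb was -2.69 points.

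**Figure D3:**
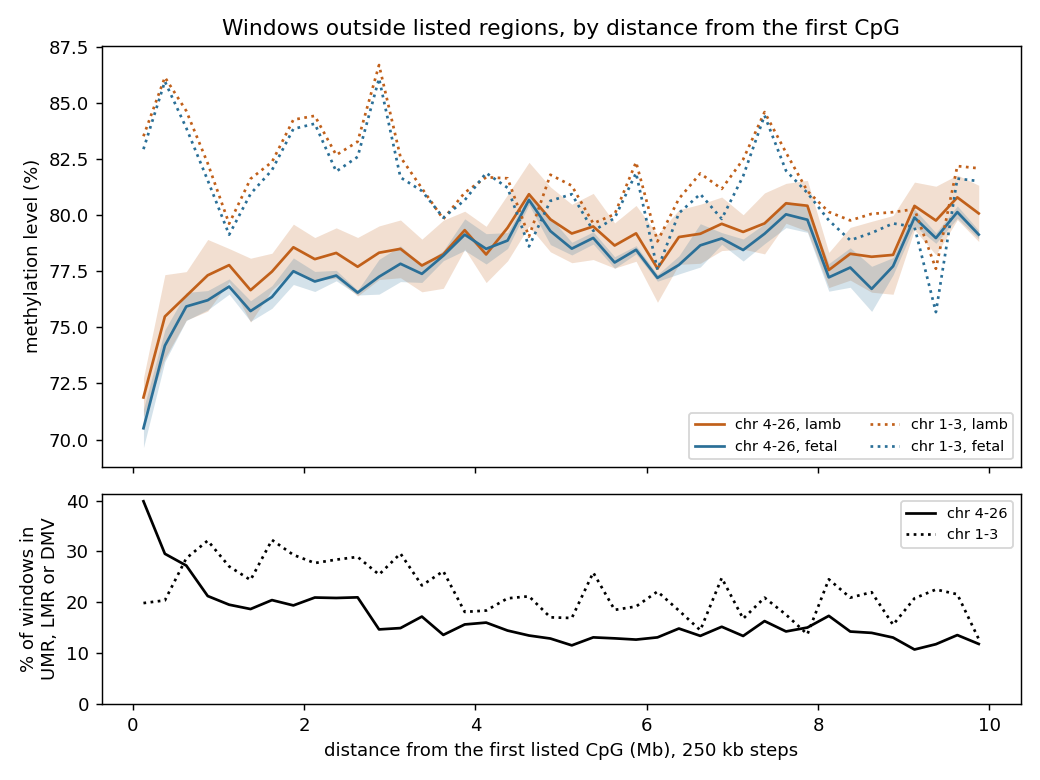
Methylation level (%) of windows outside the listed regions in 250 kb steps up to 10 Mb from the first listed CpG (top) and the share (%) of all windows that touch a UMR, LMR or DMV (bottom). Solid lines are chromosomes 4 to 26 with the SD of 3 animals shaded, dotted lines chromosomes 1 to 3, lambs in orange and fetal animals in blue; the first step of chromosomes 4 to 26 is at 71.9% in lambs and 70.5% in fetal animals, with 39.9% of its windows in listed regions.

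**Figure D4:**
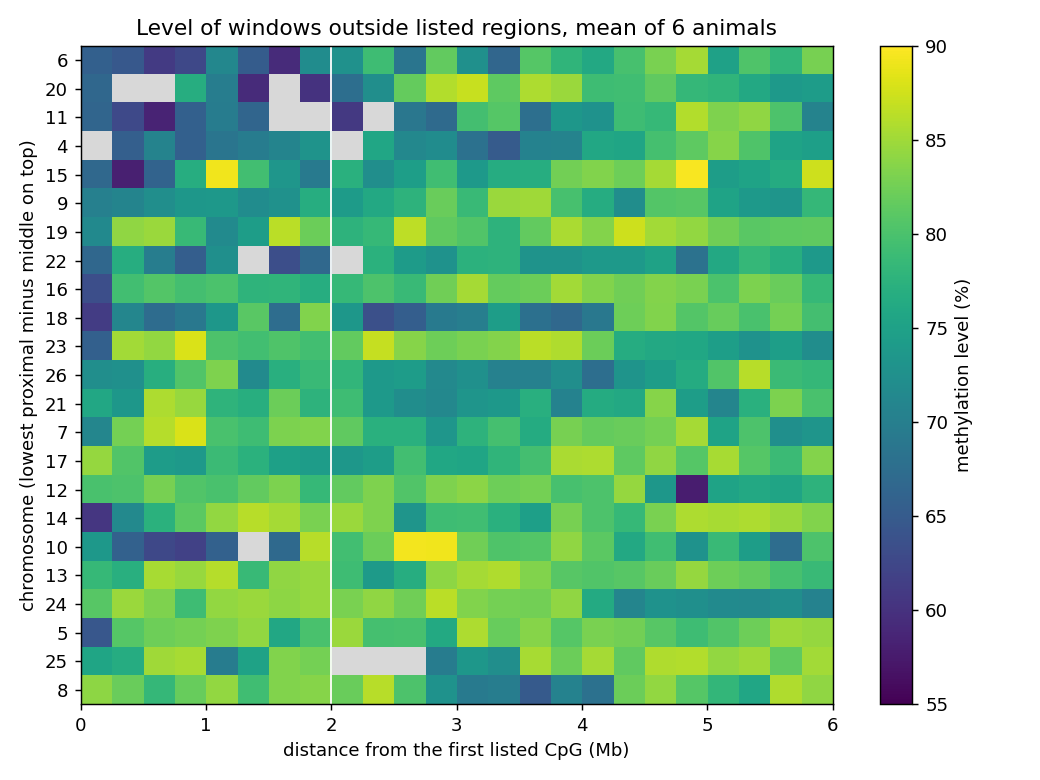
Methylation level (%, colour, mean of 6 animals) of windows outside the listed regions in 250 kb steps over the first 6 Mb of chromosomes 4 to 26, lowest proximal minus middle difference on top; grey steps had under 5 windows and the white line marks 2 Mb. On chromosomes 6, 20, 11 and 4 most coloured steps before the line are dark, while on chromosomes 23 and 5 the first step alone stands out.

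Listed regions were dense at the same ends. They took 24.5% of the proximal windows, against 11.1% in the middle and 23.5% at the distal end. LMRs covered 8.07% of the proximal bases in the lamb list and 8.75% in the fetal list, against 3.06% and 3.30% in the middle and 3.76% and 3.88% at the distal end. Proximal LMRs had a median length of 783 bases in the lamb list and 770 in the fetal list, against 655 bases in both lists in the middle and 306 and 301 bases at the distal end.

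UMRs covered 3.53% of the proximal bases in lambs and 4.06% in fetal animals, against 1.47% and 1.57% in the middle and 5.36% and 5.43% at the distal end. DMVs numbered 4 in each stage's list, against 10 in each list in the middle and 19 in the lamb list and 21 in the fetal list distally. So the proximal ends had the largest LMR share of the 3 sets, a UMR share between those of the middle and the distal end, and the fewest DMVs. The proximal windows that touched a listed region and had usable CpGs were at 49.1% ± 0.839 in lambs and 47.8% ± 0.324 in fetal animals (SD, n = 3 each), above the middle at 43.0% and 42.3% and below the distal end at 52.7% and 52.2%. With listed regions included, proximal minus middle was -4.15 points (exact sign-flip permutation p = 0.03125).

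Chromosomes with low proximal windows outside the lists also had much of the 2 Mb inside them. The share of windows in listed regions was 56.4% on chromosome 20 and 51.6% on chromosome 11, the highest and the second highest of all 1216 blocks, and 6.65% on chromosome 8. On chromosome 20 LMRs covered 23.5% of the proximal bases in the lamb list and 20.6% in the fetal list, with medians of 1989 and 1879 bases and the longest at 16384 bases in the lamb list. On chromosome 11 they covered 22.1% in the lamb list and 22.6% in the fetal list, and on chromosome 8 1.48% and 1.94%. The sources used here do not say how the lists were made. The windows outside them are what the calling left, and the part of that in their level was not tested.

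Over the 23 chromosomes the proximal level had a Pearson correlation of -0.733 with the share of windows in listed regions, 0.515 with coverage per listed CpG and 0.563 with listed CpGs per kb. These are descriptions over chromosomes that share 6 libraries, and all these measures come from the same CpGs. Chromosomes with few windows were mostly low. Chromosome 4 had 70 windows, chromosome 20 had 77 and chromosome 10 had 87, at coverages of 4.70, 4.799 and 4.46 reads per listed CpG, and proximal levels of 68.9%, 67.0% and 73.2%. The part of coverage in the level was not tested.

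The lower level was present in every class of CpG number. The proximal 2 Mb held 11.1 listed CpGs per kb, against 8.70 in the middle and 26.9 at the distal end, and the level of the windows went up with CpG number in all 3 sets. With reads pooled within classes of 3 to 5, 6 to 10, 11 to 20, 21 to 40 and over 40 listed CpGs, proximal minus middle was -3.05, -1.93, -2.47, -4.44 and -5.58 points. In the class with over 40 CpGs, 664 proximal windows averaged 82.2% in lambs and 81.1% in fetal animals, against 87.7% and 86.8% in 65 windows of the middle. The distal windows of this class were at 86.2% and 85.6%.

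Most single windows were nonetheless highly methylated. The median level of a proximal window was 81.0%, with quartiles at 71.9% and 88.2%, against a median of 82.0% in the middle and 85.2% at the distal end. Under 50% lay 208 members (1.93%), against 1.68% of middle and 0.341% of distal windows, and 1 member lay under 20%. In the first 250 kb 4.11% of the members were under 50%, against 1.67% beyond it.

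Of members with at least 5 usable CpGs, the lowest was chr18:1061001-1062000, at 27.03%, 29.4% and 25.96% in lambs and 28.0%, 29.1% and 24.6% in fetal animals, with 22.1 reads per usable CpG. Next came chr23:1775001-1776000 at 40.5% ± 6.36 in lambs and 39.4% ± 10.1 in fetal animals, chr7:480001-481000 at 41.7% ± 9.63 and 39.3% ± 12.3, chr21:336001-337000 at 48.0% ± 8.47 and 33.6% ± 8.42, and chr5:305001-306000 at 40.3% ± 6.59 and 42.5% ± 5.33 (SD, n = 3 each). The stages overlapped in all 5.

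The members with the most listed CpGs were almost fully methylated. The window chr24:1689001-1690000, with 93 CpGs of which 29 were usable, was at 96.4% ± 2.61 in lambs and 96.0% ± 2.11 in fetal animals (SD, n = 3 each). Likewise chr26:1126001-1127000, with 93 CpGs of which 4 were usable, was at 94.7% and 91.0%, and chr24:1614001-1615000, with 88 CpGs, at 96.8% and 95.4%.

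Between the stages, proximal windows were a little more methylated in lambs, within the spread of the animals. The mean was 76.7% ± 1.07 in lambs and 75.5% ± 0.409 in fetal animals (SD, n = 3 each), a difference of 1.23 points. Lamb 1, at 75.6%, lay under fetal animal 2, at 75.9%, so the stages overlapped, and a two-sided exact permutation test returned p = 0.2, where 3 animals against 3 cannot go below 0.1. Lamb 2 was the highest in every set. The difference was 0.607 points without lamb 2 and 1.81 without lamb 1. Mean coverage of an autosomal CpG was 8.00, 5.22 and 5.59 reads in lambs 1 to 3, so their proximal levels ran opposite to depth. In fetal animals 1 to 3 it was 7.45, 5.38 and 6.60 reads, and the lowest level was in fetal animal 3. The part of depth in the stage difference was not tested.

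The deficit against the middle was smaller in each lamb, at -2.66, -2.99 and -2.97 points, than in each fetal animal, at -3.24, -3.25 and -3.88 points, a difference of 0.582 points (exact permutation p = 0.1, the smallest possible, and 0.125 after adjustment over the 5 tests). It was 0.373 points without fetal animal 3 and 0.888 points with 1 Mb in place of 2 Mb. Without the first 250 kb it was 0.187 points, and the stages overlapped. They also overlapped with reads pooled over chromosomes, with 2 kb windows, with at least 5 usable CpGs and on chromosomes with at least 200 windows, at 0.655, 0.493, 0.758 and 0.600 points (exact permutation p = 0.2 in each of these 5).

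Lambs were higher than fetal animals on 22 of the 23 chromosomes in the proximal windows, on 19 in the middle and on 21 at the distal end, but the animals of the stages overlapped on most of them. The exception was chromosome 10, at -0.106 points. The stages did not overlap, with every lamb higher, on chromosomes 9, 15, 18 and 20, which is 17.4% of the 23 chromosomes, where 2.8% of all 1216 blocks did so. They did not overlap with every lamb lower on 0 chromosomes, against 0.0822% of the blocks. The same count was 1 with lambs higher in the middle and 1 at the distal ends. Low blocks farther in could show it too: chr9:8000001-10000000 and chr12:6000001-8000000, both at 70.0%, had every lamb higher, by 2.99 and 1.99 points. In chr9:6000001-8000000 and chr10:6000001-8000000, at 69.1% and 68.7%, the stages overlapped, with differences of 2.75 and 0.771 points.

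On chromosome 20 the difference was the largest, 2.99 points, with all 3 lambs (67.9% to 69.6%) above all 3 fetal animals (64.5% to 67.1%). Chromosome 15 had 72.9%, 73.3% and 74.0% in lambs and 71.8%, 70.2% and 69.8% in fetal animals, a difference of 2.79 points. On chromosome 9 the lambs were at 72.1% to 74.7% and the fetal animals at 69.8% to 71.7%, and on chromosome 18 at 75.1% to 76.8% and 72.9% to 74.7%. These 4 chromosomes had proximal levels of 67.0% to 74.8%. Over the 23 chromosomes the lamb minus fetal difference had a Pearson correlation of -0.703 with the proximal level, 2 measures taken from the same reads, and on the chromosomes above 80% it ran from 0.289 to 1.12 points.

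**Figure D5:**
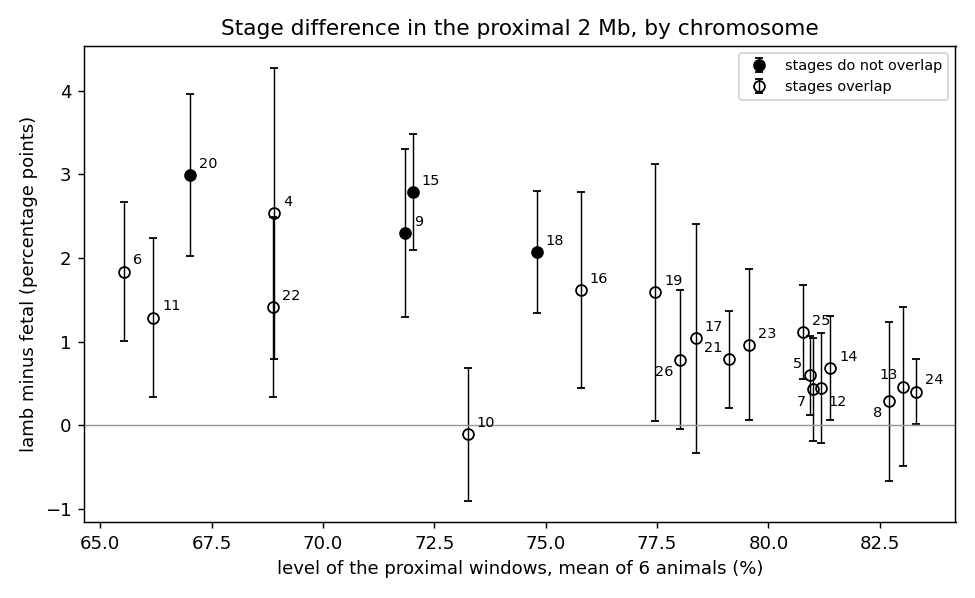
Lamb minus fetal difference (percentage points) in the proximal windows of each chromosome against their level (%, mean of 6 animals), with bars of 1 standard error from the SD of 3 lambs and 3 fetal animals and the chromosome's number beside each point. Filled points are the 4 chromosomes where the stages do not overlap, and the chromosomes above 80% all lie between 0.289 and 1.12 points.

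No single proximal window was called different between the stages. The quasi-binomial test called 0 of 10788 members at an adjusted p under 0.05 and 10 points, as it called 0.0% of all autosomal windows, and limma on the log2 ratio of methylated to unmethylated reads also called 0. The smallest adjusted p of a member was 0.483 (quasi-binomial test). At an unadjusted p under 0.05 stood 595 members (5.52%), against 5.35% of all autosomal windows outside the lists, while limma put 532 members there (4.93%), against 5.72% of those windows. Of the 595 members under 0.05 by the quasi-binomial test, lambs were higher in 364 (3.37% of all members, against 3.0%) and lower in 231 (2.14%, against 2.35%). The stages did not overlap in 670 members with lambs higher (6.21%, against 5.81%) and in 409 with lambs lower (3.79%, against 4.4%). Members thus stood slightly above the genome's share by 1 test and below it by the other. In simulated reads on the 842571 windows tested, listed regions included, 50 windows were shifted per size. Of those shifted by 20 points 4% were called, of those shifted by 30 24% and of those shifted by 40 62%. The shifted windows were drawn from all windows tested and not from the members.

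The members with the widest separation are therefore descriptions of single windows with few reads. Highest in lambs was chr10:1469001-1470000, with 4 usable CpGs, at 88.4%, 75% and 94.3% in lambs and 55.6%, 70.0% and 44.1% in fetal animals, a difference of 29.3 points (quasi-binomial adjusted p = 0.653). After it came chr26:1371001-1372000, chr5:1938001-1939000, chr9:1830001-1831000 and chr22:43001-44000, at 28.1, 27.8, 26.9 and 25.7 points. Lowest in lambs was chr12:755001-756000, also with 4 usable CpGs, at 86.7%, 59.3% and 53.3% in lambs and 97.4%, 89.2% and 88.1% in fetal animals, a difference of -25.2 points (adjusted p = 0.737). After it came chr25:1083001-1084000, chr23:1738001-1739000, chr16:897001-898000 and chr13:1573001-1574000, at -24.5, -23.6, -23.4 and -22.6 points.

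These 10 were the extremes among the members with no overlap and an unadjusted p under 0.05, 260 with lambs higher (2.41%, against 2.18% of all autosomal windows outside the lists) and 145 with lambs lower (1.34%, against 1.61%). With a minimum of 1 read, which brings in more CpGs of the same windows, each kept its direction and was smaller. The window on chromosome 10 was then at 23.4 points, that on chromosome 5 at 4.82, that on chromosome 12 at -6.02 and that on chromosome 23 at -3.89.

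The authors' differentially methylated regions (DMRs) were fewer at the proximal than at the distal ends and a little more numerous than in the middle. Their lists do not state which stage was set over the other. Their hyper list had 8 regions in the proximal 46 Mb and 54 in the distal, and their hypo list 9 and 49, against 6 and 5 in the middle. These counts are not scaled to CpG number, which was 11.1 listed CpGs per kb proximally, 26.9 distally and 8.70 in the middle. Among the members 3 overlapped a hyper DMR and 0 a hypo DMR, against 1 and 1 of 11757 middle windows and 7 and 8 of 23765 distal windows. The share over all autosomal windows outside the lists was not counted. The window chr12:1230001-1231000 was at 78.4%, 76.0% and 79.0% in lambs and 59.3%, 71.1% and 66.3% in fetal animals, with no overlap. In chr23:826001-827000 the means were 81.5% ± 4.82 in lambs and 74.8% ± 7.25 in fetal animals, and in chr23:1931001-1932000 86.3% ± 3.97 and 85.7% ± 9.24 (SD, n = 3 each), and in both the stages overlapped.

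At matched read numbers the spread of window levels within a stage was about the same in proximal and middle windows. Among windows with 30 to 60 reads per animal, the median SD between lambs was 5.59 points in proximal and 5.58 points in middle windows, and that between fetal animals 5.61 and 5.52 points. In distal windows, which had a higher level, it was 5.13 and 5.02 points. The spread from counting few reads was not taken out, so these values cannot show how alike the animals were.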

How the data were processed

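Whole-genome bisulfite libraries of 3 lambs and 3 fetal animals had 1 lane of paired 100-base reads each, per the labels' protocols. The build is Oar_v3.1, per the series design text; BWA, Picard, Oar_v3.1 and hg19 stand in the submitters' processing notes with no role. Which caller, duplicate filter or conversion filter the authors applied is not given in the sources used. The authors deposited a table of raw counts, methylated and covering reads per CpG and animal, for 26377052 positions, of which 24936679 are autosomal. The authors' UMR, LMR and DMV lists (1 per stage) and DMR lists hold positions alone and no value.

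The members, lists and comparisons were chosen with earlier results of these data known. Windows lay on a grid from position 1, and middle and distal sets of 2000 windows per chromosome followed the same rule. An animal's level on a chromosome is the sum of methylated over the sum of covering reads at usable CpGs, and sets are means over chromosomes with at least 20 windows in both sets. Levels were compared by exact sign-flip tests over 6 animals or exact permutation tests of 3 against 3, two-sided, adjusted together by Benjamini-Hochberg. Windows were tested on methylated against unmethylated reads by a quasi-binomial logistic model with the dispersion moderated as in limma's squeezeVar (prior 1.28, 14.2 degrees of freedom, the same in limma) and not allowed below 1, with Benjamini-Hochberg adjustment over all 842571 autosomal windows with at least 3 usable CpGs, and called at an adjusted p under 0.05 and 10 points. The test was checked on simulated reads, with 0 false calls.

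Chromosomes were named as the 3 lowest and 3 highest in proximal minus middle. Windows were named as the 5 per direction with the largest stage difference among those with an unadjusted p under 0.05 and no overlap, the 5 lowest with at least 5 usable CpGs, the 3 with the most listed CpGs, and those in a DMR. No genome or annotation of Oar_v3.1 was used, so no gene or sequence is given. PCR copies cannot be told from separate molecules, so the precision given by read numbers is that of counting only. Software was Python 3.11.15 (pandas 2.3.3, numpy 2.4.6, scipy 1.17.1) and limma 3.58.1 in R 4.3.3. The alternatives were a minimum of 3, 10 or 1 reads, each animal or CpGs of high coverage left out, other weights, spans, window sizes and CpG minimums, listed regions included, the middle 50% or a CpG-matched middle, limma and a replicate block. The minimum of 1 read, the sets without the first 250 kb, those with at least 200 windows and the pooled reads with listed regions were chosen after seeing the data. Same-numbered animals were not paired: over the members their deviations from the stage means correlated at 0.00843, 0.0136 and 0.0180.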

Additional observations from a re-analysis of the deposited data

Results flagged for a closer look

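In 3 of 26 values screened over the 6 animals, 1 animal stood apart from the others, and chance alone gives about 1 in 20. On chromosome 6 fetal animal 3 had a proximal minus middle difference of -20.2 points, against -17.7 to -16.7 in the others, and all 6 animals had their proximal windows lower. On chromosome 10 lamb 2 was at -2.62 points, against 2.66 to 4.59 points in the others, the single animal below 0 there, and the set rests on 87 proximal windows. On chromosome 13 fetal animal 1 was at 2.24 points, against 3.30 to 3.80 points in the others, with the same direction in all 6.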

How the results depend on the processing

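Proximal minus middle, proximal minus distal and the comparison with chromosomes 1 to 3 kept their direction and an exact p of 0.03125 under the alternatives run with all 6 animals, over -5.00 to -1.42, -9.35 to -4.28 and -6.11 to -3.17 points. Leaving out 1 animal gave -3.25 to -2.88, -8.02 to -7.65 and -4.91 to -4.44 points, with an exact p of 0.0625, the smallest that 5 animals allow. Lamb minus fetal in the proximal windows ran from 0.813 to 1.303 points, and from 0.607 to 1.81 without 1 animal. The stage difference of proximal minus middle ran from 0.187 to 0.888 points, and from 0.373 to 0.749 without 1 animal. With a replicate block, which same-numbered animals do not call for, these 2 stage differences stayed at 1.23 and 0.582 points. Their exact p was then 0.25, the smallest for 3 pairs. Under this block the quasi-binomial test called 0 windows and put 427 members at an unadjusted p under 0.05. The share of all autosomal windows there under this block was not counted. Over the members not every animal correlated best with its own number. The direction turned on chromosome 20 with 5 Mb (1.87 points), on chromosome 25 against the middle 50% (-0.332) and on chromosome 5 with 1 read and listed regions (-0.550); the cause was not tested. With a minimum of 1 read 1 of 26411 windows was called, and with 10 reads, where 77 members were left and no chromosome had more than 12, levels could not be compared and 0 were called. How many of all autosomal windows were called at these settings was not counted. A member rested on a median of 44 reads per animal.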

Other observations

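The window called with a minimum of 1 read was chr24:931001-932000, with 55 usable CpGs and 366 reads per animal. It was at 68.0% ± 9.52 in lambs and 87.8% ± 1.76 in fetal animals (SD, n = 3 each), a difference of -19.8 points with an adjusted p of 0.0472 by the quasi-binomial test. This setting was chosen after seeing the data, and the calls among all autosomal windows were not counted under it.

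The dip at the start of the sequence had its lowest 50 kb step between 50 and 100 kb, at 67.3% ± 1.13 in lambs and 65.9% ± 0.809 in fetal animals over 253 windows, where a usable CpG had 17.8 reads per animal. Without CpGs of high coverage this step was at 70.6% in lambs and 69.4% in fetal animals, close to the first 50 kb, at 71.0% and 68.9%. From 200 to 250 kb the level was 77.1% in lambs and 76.6% in fetal animals.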
